A study of Homo sapiens with 6 samples.

Results

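The epidermal growth factor (EGF) receptors and their ligands were followed as 10 genes, taken by symbol from the 60612 genes of the deposited tables. They are the receptors EGFR, ERBB2 and ERBB3 and the ligands AREG, EREG, HBEGF, TGFA, EPGN, BTC and NRG1, and each of the 10 symbols matched a single gene. RNA sequencing compared libraries labelled ABCF1 with libraries labelled NC-1, 3 in each group, all carrying the label HepG2, an established human liver tumour line. The series describes stable lines made to overexpress ABCF1, a ribosome-associated translation factor, in forms with lysine changed to arginine. The labels give only the genotypes ABCF1 and NC-1, with no promoter, clone or form of the protein, and they do not say what NC-1 stands for.

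EGF receptors are membrane tyrosine kinases that pair when a ligand binds and then signal through the RAS-MAPK and PI3K-AKT routes. EGFR binds AREG, EREG, HBEGF, TGFA, EPGN and BTC, ERBB3 binds NRG1, and ERBB2 has no known ligand of its own and acts as the partner of the others. The ligands are made as membrane-bound precursors that metalloproteases cut free, and in liver EGFR signalling is known for its part in regeneration.

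Total counts ran from 62323034 to 77394510 per library. The ABCF1 transcript itself had 102, 108 and 110 CPM (counts scaled to library size) in the libraries labelled ABCF1, against 162, 159 and 155 CPM in the NC-1 libraries. It was thus lower in the libraries labelled ABCF1, against what overexpression would give, and directions below follow the labels as deposited. One library of each group, ABCF1 replicate 3 and NC-1 replicate 2, scored 47.2 and 42.0 on the main axis of variation between libraries, whereas the other 4 scored -29.3 to -6.96. Of 11 hepatocyte markers, 10 had a mean below 1 RPKM (read number per transcript length and depth) in these libraries, ALB and AFP among them, while HNF4A, a liver transcription factor, had 15.0 to 31.2 RPKM. Summed, the 11 had 18.4 to 31.2 RPKM in the libraries labelled ABCF1 and 15.1 to 26.8 RPKM in NC-1. The keratins KRT8 and KRT18 of simple epithelium averaged 759 and 676 RPKM, and the leukocyte markers PTPRC and CD3E had 0 counts. The 4 squamous markers, KRT5, KRT14, KRT6A and TP63, summed to 0.159 to 1.05 RPKM in the libraries labelled ABCF1 and 0.0411 to 0.252 RPKM in NC-1, and their part in the results was not tested. Levels below therefore belong to cells labelled HepG2 in which secreted liver transcripts were near 0.

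The windows before the start sites are shown first for the members at both ends of the range of levels, EGFR and HBEGF as the highest receptor and ligand, and AREG, EREG and EPGN as neighbours on chromosome 4 of which only AREG was above 0 in each library. Each is the 250 bases before the RefSeq start (GRCh38.p14), read on the strand of the gene. Capitals mark the GC box, spelt GGGCGG, the cyclic AMP response element, spelt TGACGTCA, and the box near the start to which the basal transcription machinery binds, spelt TATAAA. All were searched on both strands, and a match on the other strand shows as its complement.
EGFR, chr7:55018767-55019016, plus strand: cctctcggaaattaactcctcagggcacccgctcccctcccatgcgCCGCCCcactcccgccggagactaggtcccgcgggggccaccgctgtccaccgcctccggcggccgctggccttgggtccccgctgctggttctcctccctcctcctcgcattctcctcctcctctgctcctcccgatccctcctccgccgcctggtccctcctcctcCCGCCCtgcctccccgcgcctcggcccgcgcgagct
HBEGF, chr5:140346604-140346853, minus strand: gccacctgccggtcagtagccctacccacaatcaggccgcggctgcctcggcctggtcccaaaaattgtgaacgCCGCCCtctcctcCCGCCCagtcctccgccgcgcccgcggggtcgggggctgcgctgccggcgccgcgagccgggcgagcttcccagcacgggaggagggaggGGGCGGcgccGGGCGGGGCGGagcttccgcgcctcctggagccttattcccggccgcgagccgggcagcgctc
AREG, chr4:74444886-74445135, plus strand: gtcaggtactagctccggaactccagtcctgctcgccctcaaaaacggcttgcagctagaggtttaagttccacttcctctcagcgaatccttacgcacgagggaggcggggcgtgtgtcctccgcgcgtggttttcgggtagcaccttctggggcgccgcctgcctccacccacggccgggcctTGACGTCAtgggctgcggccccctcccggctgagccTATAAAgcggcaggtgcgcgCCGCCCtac
EREG, chr4:74364895-74365144, plus strand: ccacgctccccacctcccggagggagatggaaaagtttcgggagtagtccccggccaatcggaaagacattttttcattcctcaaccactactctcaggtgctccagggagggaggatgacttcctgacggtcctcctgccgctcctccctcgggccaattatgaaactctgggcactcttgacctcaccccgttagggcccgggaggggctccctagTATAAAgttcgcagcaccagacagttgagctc
EPGN, chr4:74308220-74308469, plus strand: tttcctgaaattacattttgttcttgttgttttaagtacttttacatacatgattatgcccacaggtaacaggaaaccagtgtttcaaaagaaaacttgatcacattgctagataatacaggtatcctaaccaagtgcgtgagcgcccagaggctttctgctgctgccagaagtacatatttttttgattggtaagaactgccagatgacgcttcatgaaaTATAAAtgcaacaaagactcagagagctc

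A TATA box stood in 3 of the 8 members with a RefSeq window, and these were AREG, EREG and EPGN, at 29, 32 and 29 bases before the start. It was found in 10.8% of all 34943 promoter windows. A GC box was found in 4 of the 8, against 42.5% of all windows. HBEGF held 5, of which the pair nearest the start overlapped by 1 base, TGFA held 3, EGFR 2 and AREG 1. The cyclic AMP response element of AREG, 65 bases before its start, is a sequence found in 1.6% of windows. An AP-1 sequence (TGANTCA) was searched too and was found in ERBB2, against 6.6% of windows. The GC content of the window was 73.6% for EGFR, 76.4% for HBEGF, 65.2% for AREG, 58.0% for EREG and 38.0% for EPGN, with a median of 58.0% over all windows. EPGN, at 0 counts in these cells, had the window with the fewest CpG pairs of the 5, 3 against 25 for EGFR and 33 for HBEGF. The RefSeq start minus the deposited gene start, in genome coordinates, was 180 bases for ERBB2 and -367 for TGFA. It was 0 for the other members with a window. EGFR and TGFA each had 2 RefSeq windows, of which the one nearest the deposited start was used. ERBB3 and NRG1 are named only. A match describes letters in a window only.

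Levels were compared between genes on the RPKM scale, which allows for transcript length. EGFR was the most abundant member, at 44.6 ± 12.1 RPKM over the 6 libraries (SD, n = 6), and lay above 93.4% of the genes with any reads. ERBB2 had 18.7 ± 2.40 RPKM and ERBB3, whose kinase is nearly inactive and which signals through its partners, 8.58 ± 0.714 RPKM (SD, n = 6). The receptors kept this order in each of the 6 libraries, and the ranges of neighbours did not overlap. ERBB4, the remaining receptor of the family, had 0 counts in all 6 libraries.

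HBEGF, a heparin-binding ligand that can also act while bound to the membrane, was the most abundant of the 7 ligands at 3.37 ± 0.346 RPKM (SD, n = 6). It made up 55.5% to 65.3% of the summed ligand RPKM of a library. NRG1, a ligand of ERBB3, followed at 1.36 ± 0.372 RPKM, AREG at 0.586 ± 0.166 RPKM and TGFA at 0.383 ± 0.0591 RPKM. HBEGF and NRG1 did not overlap with the next lower member, whereas the ranges of AREG (0.408 to 0.768 RPKM) and TGFA (0.291 to 0.444 RPKM) did, although AREG was the higher in each of the 6 libraries. Summed over the 7 ligands the level was 5.02 to 6.24 RPKM, against 51.4 to 86.9 RPKM summed over the 3 receptors.

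BTC, EREG and EPGN were at or close to 0. BTC, betacellulin, had 16 counts in ABCF1 replicate 1, with a 95% Poisson interval of 9.15 to 26.0 that covers counting error only, and 0 counts in the other 5 libraries. EREG, epiregulin, had 10 counts in ABCF1 replicate 2 and 4 in NC-1 replicate 2, and 0 in the others. EPGN, epigen, had 0 counts in every library, and a count of 0 allows up to 3 counts, or 0.0388 to 0.0481 CPM of the library totals. No order can be read among these 3 at this depth, and none passed the filter on low counts.

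**Figure D1:**
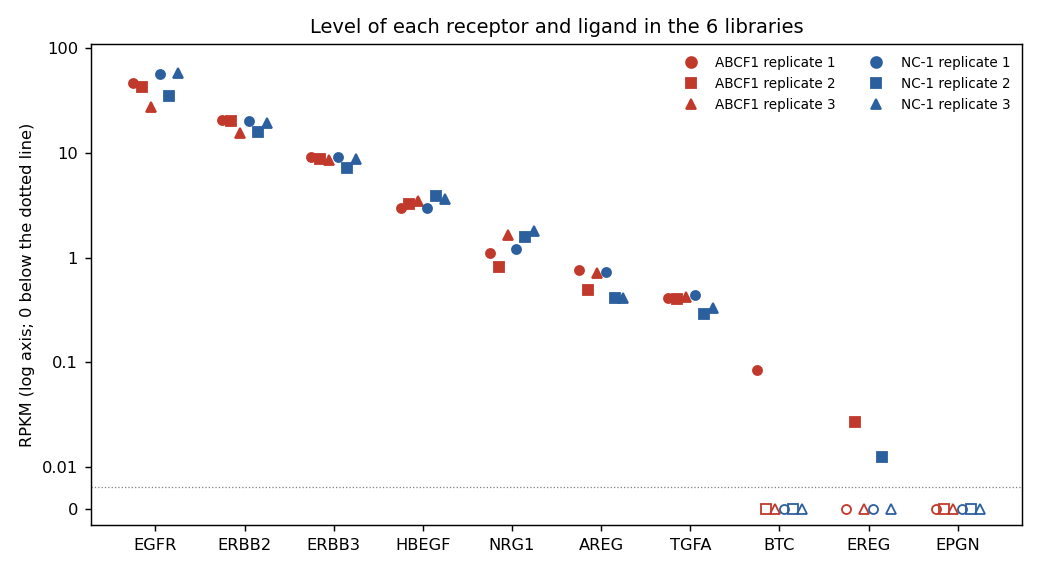
RPKM of the 10 members in each of the 6 libraries (log axis, with values of 0 drawn as open symbols under the dotted line). The 3 receptors lie above the 7 ligands in each library, and EGFR reaches 58.6 RPKM in NC-1 replicate 3 and is lowest at 27.4 RPKM in ABCF1 replicate 3.

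The ligands at or close to 0, BTC, EREG and EPGN, share a place in the genome with AREG. EPGN, EREG, AREG and BTC lie on chromosome 4 (GRCh38) within 486 kb of each other, EPGN from 74308470 to 74316789, EREG from 74365145 to 74388749 and AREG from 74445136 to 74455005 on the plus strand, and BTC from 74744759 to 74794523 on the minus strand. Of these 4 only AREG, amphiregulin, had reads in every library. The nearest protein-coding neighbours before EPGN were MTHFD2L, a mitochondrial folate enzyme, at 0.956 RPKM and the chemokine CXCL2 at 0.786 RPKM, whereas PARM1, beyond BTC, had 0 RPKM. The other members lie apart, EGFR on chromosome 7 from 55019017 to 55211628, ERBB2 on chromosome 17 from 39687914 to 39730426, ERBB3 on chromosome 12 from 56076799 to 56103505, HBEGF on chromosome 5 from 140332843 to 140346603, TGFA on chromosome 2 from 70447284 to 70554193 and NRG1 on chromosome 8 from 31639222 to 32855666. ERBB2 overlaps MIEN1 and PGAP3 on the opposite strand, which had 2050 to 3405 and 459 to 590 counts, and without a stated use of strand reads in the overlap cannot be assigned. The genes overlapping EGFR, ERBB3, TGFA and NRG1 had 0 counts in each library, and EREG, AREG, HBEGF, EPGN and BTC overlap no listed gene.

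**Figure D2:**
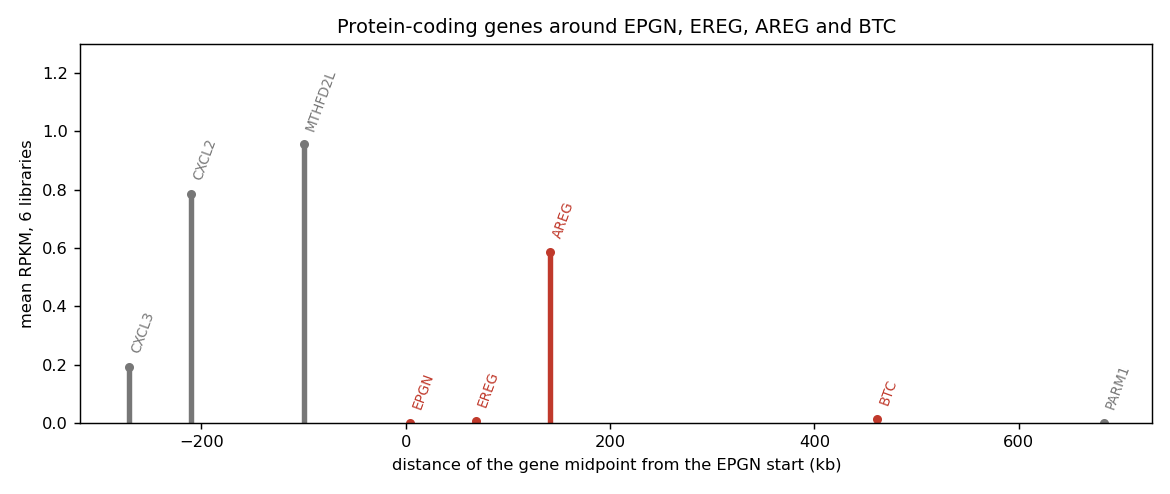
Mean RPKM over the 6 libraries of the protein-coding genes on both sides of the EPGN, EREG, AREG and BTC genes, by distance of the gene midpoint from the EPGN start in kb. Of the 4 ligand genes (red) AREG stands at 0.586 RPKM while EPGN, EREG and BTC are at or near 0, and neighbours are in grey.

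Between the groups, the question was whether any receptor or ligand transcript changed with the label. None of the 7 members that could be tested was called by edgeR's quasi-likelihood test at an adjusted p under 0.05, and 0% of all 16545 tested genes were called in either direction. At an unadjusted p under 0.05 the count was 0 of the 7 members, against 6.27% of all genes higher and 8.54% lower. limma-voom also called 0 members, and so did the DESeq2 Wald test, which called 1.47% of genes higher and 2.31% lower. The DESeq2 test gave no adjusted p for AREG, TGFA and NRG1, so it could not call them. The labels do not tell whether a group's libraries stem from different cultures, and these p-values measure a spread between libraries that may be technical.

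EGFR was lower in the libraries labelled ABCF1 within each set of like libraries, by about the same amount. Its normalised counts were 508, 472 and 311 CPM in the libraries labelled ABCF1 and 567, 369 and 616 CPM in NC-1. The groups overlapped, because NC-1 replicate 2 lay below ABCF1 replicates 1 and 2. ABCF1 replicate 3 and NC-1 replicate 2 were each the lowest of their group. Over all libraries EGFR averaged 431 ± 105 CPM in the libraries labelled ABCF1 and 517 ± 131 CPM in NC-1 (SD, n = 3 each), a log2 fold change of -0.27 (SE 0.23, edgeR adjusted p = 0.63). Between the pair that stood apart the log2 ratio was -0.25 (311 CPM in ABCF1 replicate 3 and 369 CPM in NC-1 replicate 2). Between the means of the other 4 libraries it was -0.27 (490 CPM against 591 CPM). In bulk RNA, fewer cells that express EGFR and less EGFR RNA per cell cannot be told apart.

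With the library set, that is membership of the pair that stood apart, as a covariate, the log2 fold change of EGFR was -0.26 with an SE of 0.05 (edgeR adjusted p = 0.0044). It was then the only member called of the 7 tested, in a fit that called 12.5% of all genes lower and 12.9% higher. With both libraries of that pair left out, EGFR was called as well (log2 fold change -0.27, edgeR adjusted p = 0.027), where 5.1% of genes were called lower and 5.68% higher. The grouping behind this covariate comes from these counts, so its p-values are not those of a planned design. Leaving out a single library of that pair moved the EGFR value to -0.07 without ABCF1 replicate 3 and to -0.46 without NC-1 replicate 2, and leaving out NC-1 replicate 3 or ABCF1 replicate 1 moved it to -0.12 or -0.41, none of them called.

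The difference of EGFR in the pair that stood apart was larger than that between the groups. Against the other 4 libraries EGFR had a log2 ratio of -0.67 there, and 2.58% of the tested genes had a lower ratio. ERBB2 (-0.29) and ERBB3 (-0.22) were lower there too, with 18.2% and 24.2% of genes below them, and HBEGF (0.23) and NRG1 (0.19) were higher. The longest EGFR transcript has 9821 nucleotides and 47.5% GC, against medians of 3175 nucleotides and 49.15% over the tested genes. Over the genes with a transcript of known sequence, which are not independent replicates, Spearman's rho of the log2 fold change was 0.49 against GC content and -0.28 against length. With each library's trend with length and GC removed and the library set kept, the EGFR log2 fold change was -0.16 (SE 0.04, edgeR adjusted p = 0.037), in a fit that called 1.61% of genes lower and 4.99% higher.

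**Figure D3:**
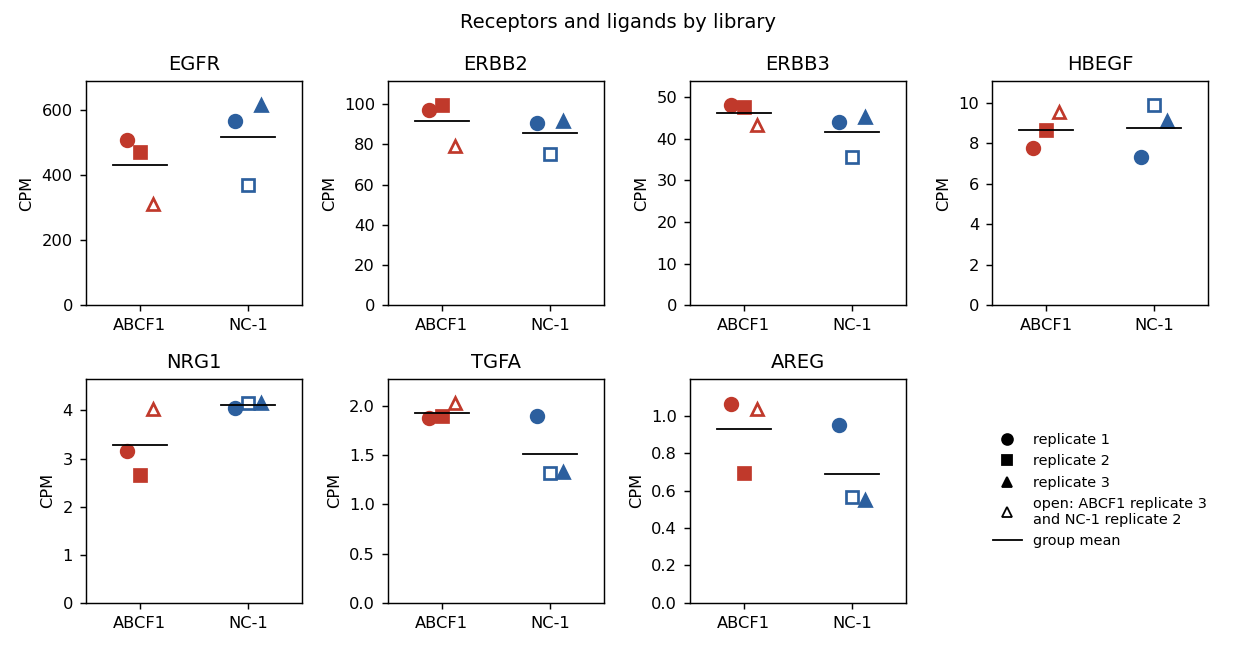
Normalised counts (CPM) of the 7 tested members by library, libraries labelled ABCF1 at left and NC-1 at right, with lines at the group means and open symbols for ABCF1 replicate 3 and NC-1 replicate 2. EGFR is lowest in the open symbols of both groups, and NRG1 is the member whose groups do not overlap.

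ERBB2 and ERBB3 differed by less than the spread between libraries. ERBB2 had 97.0, 99.6 and 79.1 CPM in the libraries labelled ABCF1 and 90.8, 75.5 and 91.6 CPM in NC-1, a log2 fold change of 0.10 (SE 0.13, edgeR adjusted p = 0.75). ERBB3 had 48.1, 47.6 and 43.3 CPM in the libraries labelled ABCF1 and 44.0, 35.7 and 45.2 CPM in NC-1, a log2 fold change of 0.15 (SE 0.12, edgeR adjusted p = 0.57). Both receptors overlapped between the groups, and an interval of 2 SE ran from -0.16 to 0.35 for ERBB2 and from -0.08 to 0.38 for ERBB3. With the library set as a covariate ERBB3 had the smaller adjusted p (0.077, log2 fold change 0.16, SE 0.06, edgeR), which did not pass.

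Ratios between receptors within a library do not depend on the scaling of that library. EGFR stood to ERBB2 at 2.26, 2.13 and 1.78 on the RPKM scale in the libraries labelled ABCF1, against 2.77, 2.20 and 3.00 in NC-1. The groups overlapped, since NC-1 replicate 2 lay below ABCF1 replicate 1, and a two-sided exact permutation test gave p = 0.20 (0.45 adjusted over 3 ratios), where 3 against 3 cannot go below 0.1. Within the pair that stood apart the ratio was 1.78 in ABCF1 replicate 3 and 2.20 in NC-1 replicate 2. EGFR to ERBB3 averaged 4.44 ± 1.07 in the libraries labelled ABCF1 and 5.91 ± 0.925 in NC-1 (SD, n = 3 each; exact permutation p = 0.30), and ERBB2 to ERBB3 2.14 ± 0.284 and 2.22 ± 0.0166 in the same order of groups (exact permutation p = 1). EGFR made up 61.2%, 59.7% and 53.4% of the receptor RPKM in the libraries labelled ABCF1, against 65.7%, 60.3% and 67.4% in NC-1.

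Among the ligands, NRG1 alone did not overlap between the groups. It had 3.17, 2.66 and 4.03 CPM in the libraries labelled ABCF1 and 4.05, 4.15 and 4.16 CPM in NC-1, and ABCF1 replicate 3 lay just under the lowest NC-1 library. Of all tested genes, 12.4% had all 3 libraries labelled ABCF1 below all 3 of NC-1 and 10.7% had them above. The log2 fold change of NRG1 was -0.32 (SE 0.19, edgeR adjusted p = 0.46). It was -0.14 with the length and GC offset alone and -0.18 with the library set and that offset together. On the RPKM scale the groups overlapped, at 1.11, 0.818 and 1.65 RPKM in the libraries labelled ABCF1 and 1.20, 1.58 and 1.78 RPKM in NC-1. The transcript length implied by the count, the RPKM and the total count ran from 2.28 to 3.49 kb for NRG1 between libraries, whereas for EGFR it lay between 10.4 and 11 kb. The 2 deposited tables rank the NRG1 libraries differently.

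HBEGF did not differ beyond its spread, at 7.78, 8.67 and 9.57 CPM in the libraries labelled ABCF1 and 7.32, 9.90 and 9.10 CPM in NC-1. Its log2 fold change was -0.02 (SE 0.16, edgeR adjusted p = 0.97), with 2 SE reaching from -0.33 to 0.30. TGFA, a close relative of EGF, had 1.88, 1.90 and 2.03 CPM in the libraries labelled ABCF1 and 1.90, 1.32 and 1.32 CPM in NC-1. NC-1 replicate 1 lay among the libraries labelled ABCF1, and the log2 fold change of 0.35 (SE 0.24, edgeR adjusted p = 0.52) did not pass. AREG, a ligand of lower affinity for EGFR, had 67, 48 and 75 counts in the libraries labelled ABCF1 and 68, 36 and 38 counts in NC-1. NC-1 replicate 1 again lay with the libraries labelled ABCF1, and the log2 fold change was 0.43 (SE 0.37, edgeR adjusted p = 0.61). An interval of 2 SE for AREG ran from -0.31 to 1.18 and is the widest of the 7, AREG having the fewest counts.

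**Figure D4:**
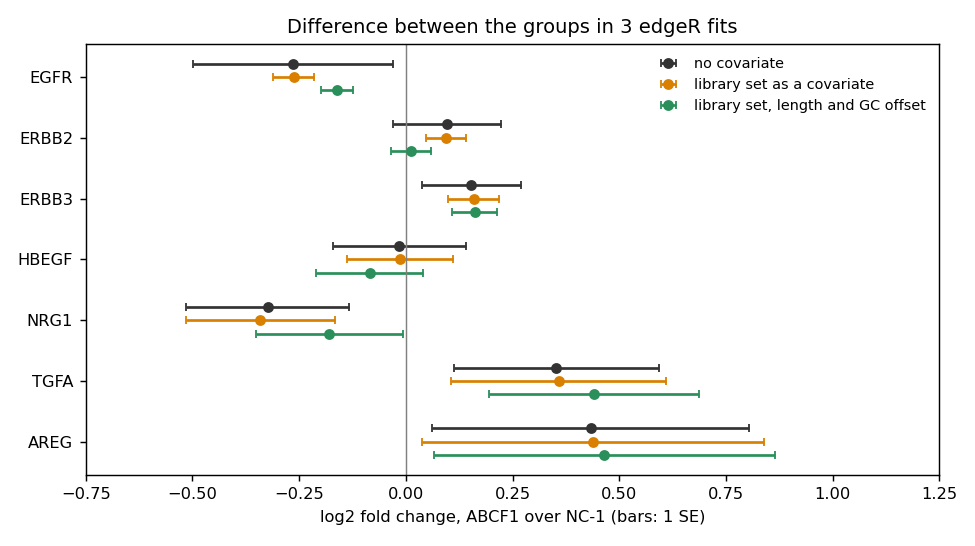
Log2 fold change of the 7 tested members, libraries labelled ABCF1 over NC-1, in 3 edgeR fits, with bars of 1 SE. EGFR is at -0.27 with no covariate and at -0.26 when the library set is added, with an SE of 0.05. It moves to -0.16 with the library set and the length and GC offset together.

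The profile of EGFR over the 6 libraries was shared by many genes. ASXL2, KAT6B and FAM160A1 were the 3 of 9482 genes of at least 10 CPM that followed it most closely, with Pearson correlations of log2 CPM of 0.999 each over 6 libraries. The correlation was over 0.9 for 1159 genes, which share the libraries and their depth. For HBEGF the closest were CHPT1, COX17 and DHRS7B (0.979, 0.979 and 0.973), and 67 genes were over 0.9.

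Of the ligands and receptor outside the 10, NRG4 stood out by level. NRG4, a ligand of ERBB4, had 8.33, 8.42 and 7.38 RPKM in the libraries labelled ABCF1 and 8.43, 10.4 and 9.66 RPKM in NC-1, above HBEGF in each library, whereas ERBB4 had 0 counts. Its log2 fold change was -0.18 (SE 0.11, edgeR adjusted p = 0.46), and 0.04 with the library set and the length and GC offset. In CPM all libraries labelled ABCF1 lay below those of NC-1, as they did for 12.4% of all tested genes. NRG2 had 1.91 ± 0.139 CPM in the libraries labelled ABCF1 and 1.81 ± 0.283 CPM in NC-1 (SD, n = 3 each). EGF itself had at most 16 counts in a library and NRG3 at most 4.

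The enzymes that release the ligands and their cofactors all had a mean of at least 2.53 RPKM. edgeR and the DESeq2 Wald test each called 0 of the 7 sheddases and cofactors over all libraries. At an unadjusted p under 0.05 edgeR had 0 higher and 2 lower, against 6.27% and 8.54% of all genes. Of the 7, 5 had a negative log2 fold change, against 8264 of all 16545 tested genes. The list median was -0.15 against 0 over all tested genes. With the library set as a covariate 3 of 7 were lower and 0 higher, against 12.5% and 12.9% of all genes, namely ADAM10, ADAM9 and ADAM17, of which ADAM17 is the main sheddase of AREG, HBEGF and TGFA and ADAM10 of BTC. ADAM17 had 35.7 ± 6.36 CPM in the libraries labelled ABCF1 and 42.0 ± 5.43 CPM in NC-1 (SD, n = 3 each), with groups that overlapped. ADAM10 had 67.8 ± 7.39 CPM in the libraries labelled ABCF1 and 85.4 ± 4.28 CPM in NC-1. These 3 transcripts have 38.3% to 39.4% GC, and once the offset for length and GC joined the fit their log2 fold changes were -0.05 for ADAM10, -0.09 for ADAM9 and 0.03 for ADAM17, none called. In that fit, which called 1.61% of all genes lower, FRMD8, a cofactor that steadies ADAM17 at the cell surface, was lower instead (-0.22, edgeR adjusted p = 0.044). FRMD8 is named here after its value was seen.

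Genes that carry the signal from the receptors went both ways. Over all libraries edgeR called 0 of 17 adaptors and RAS-MAPK genes. At an unadjusted p under 0.05 it had 1 higher and 6 lower, against 6.27% and 8.54% of all genes. By DESeq2's Wald test 1 was higher and 1 lower, against 1.47% and 2.31% of all genes. The edgeR median log2 fold change was -0.06, against 0 over all tested genes. It was positive for 7, against 8281 of all 16545 genes. With the library set 5 were higher and 7 lower, where 12.9% of all genes were called higher and 12.5% lower. PTPN11, the phosphatase SHP2 that links receptors to RAS, was at 59.4 ± 11.7 CPM in the libraries labelled ABCF1 and 86.7 ± 11.4 CPM in NC-1. It was lower by a log2 fold change of -0.56 (SE 0.06) with the library set, and was the 1 gene of this list still called under the offset for length and GC (-0.35, edgeR adjusted p = 0.0063). That fit called 1.61% of all genes lower. SOS1 (-0.49), an exchange factor that loads RAS with GTP, was lower with the library set but not called with the offset. MAP2K2 and SHC1, the most abundant of the list, were higher with the library set (0.30 and 0.24) and not with the offset. In the PI3K and AKT list edgeR called 0 over all libraries, and the DESeq2 Wald test called 1 lower, against 2.31% of all genes. With the library set 1 of 10 was higher and 4 were lower, against 12.9% and 12.5% of all genes. Among the 4 were the catalytic subunits PIK3CB (-0.37) and PIK3CA (-0.34) and the mTOR partner RICTOR (-0.34), and 0 of 10 were called with the offset. The most abundant of that list, AKT1 and PIK3R2, were not called in any of these fits.

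Feedback inhibitors and receptor downregulators gave 15 negative log2 fold changes among 18 tested genes, against 8264 of all 16545. The list median was -0.13 against 0 over all tested genes. With the library set and the offset it was -0.08 against 0.02. Over all libraries edgeR called 0 of the 18. At an unadjusted p under 0.05 it had 1 higher and 4 lower, against 6.27% and 8.54% of all genes. The DESeq2 Wald test called 1 of the list lower, against 2.31% of all genes. ERRFI1, an inhibitor of the EGFR kinase and the most abundant of them, had 183 ± 14.8 CPM in the libraries labelled ABCF1 and 187 ± 12.8 CPM in NC-1 (SD, n = 3 each). With the library set 3 of 18 were higher and 4 lower, against 12.9% and 12.5% of all genes, led by SOCS5 (-0.41), DUSP5 (0.25), a phosphatase that acts on ERK, and SOCS4 (-0.40). With the offset added 2 were higher, RNF41 (0.25), a ubiquitin ligase of ERBB3, and DUSP4 (0.21), and 0 lower, against 4.99% and 1.61% of all genes. These 2 were named after their values were seen.

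Of 12 transcripts known to respond to MAPK signalling, 6 were called higher in the libraries labelled ABCF1 once the library set was a covariate. Over all libraries edgeR called 0 of the 12. At an unadjusted p under 0.05 it had 4 higher and 0 lower, against 6.27% and 8.54% of all genes. By DESeq2's Wald test 3 were higher and 0 lower, against 1.47% and 2.31% of all genes. In edgeR 10 had a positive log2 fold change, against 8281 of all 16545 tested genes, and the median was 0.18 against 0. All 3 libraries labelled ABCF1 lay above all 3 of NC-1 for 5 of the 12, against 10.7% of all genes, and below them for 1, against 12.4%. With the library set 0 were lower, and 12.9% of all genes were called higher. With the pair left out 5 were called higher, against 5.68% of all genes. ETV4, an ETS transcription factor, had 126, 131 and 136 CPM in the libraries labelled ABCF1 and 99.9, 99.2 and 102 CPM in NC-1 (log2 fold change 0.39, SE 0.08, edgeR adjusted p = 0.25, and 0.0012 with the library set). FOSL1, an AP-1 subunit, had 55.0, 61.4 and 58.7 CPM in the libraries labelled ABCF1 and 46.7, 36.7 and 36.8 CPM in NC-1. PLAUR, the urokinase receptor, had 167, 171 and 198 CPM in the libraries labelled ABCF1 and 134, 154 and 140 CPM in NC-1. For all 3 genes the groups did not overlap, and under the offset they were still called, as were EGR1 and ETV5, at log2 fold changes of 0.18 to 0.37 in edgeR. The fit with the library set and the offset called 4.99% of all genes higher and 1.61% lower. MYC and EPHA2, the most abundant of the list, were not called (0.10 and 0.13). CCND1 (-0.17) and PHLDA1 (-0.09) were the 2 with a negative log2 fold change and were not called. PHLDA1 was the gene whose libraries labelled ABCF1 all lay below those of NC-1. CCND1 and PHLDA1 are named after their values were seen. Feedback inhibitors of the cascade were kept in the list before and are not among the 12. With the library set, DUSP6 (-0.15), SPRY1 (-0.07), SPRY2 (-0.16), SPRY4 (-0.08), SPRED1 (-0.25) and SPRED2 (-0.13) were negative and not called. DUSP4 (0.20) and DUSP5 (0.25) were called higher there. These inhibitors are set out here after their values were seen, and a general rise of MAPK output was not tested. Other signals than EGFR also act on the 12 transcripts, and the list was chosen with earlier results of these data known.

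**Figure D5:**
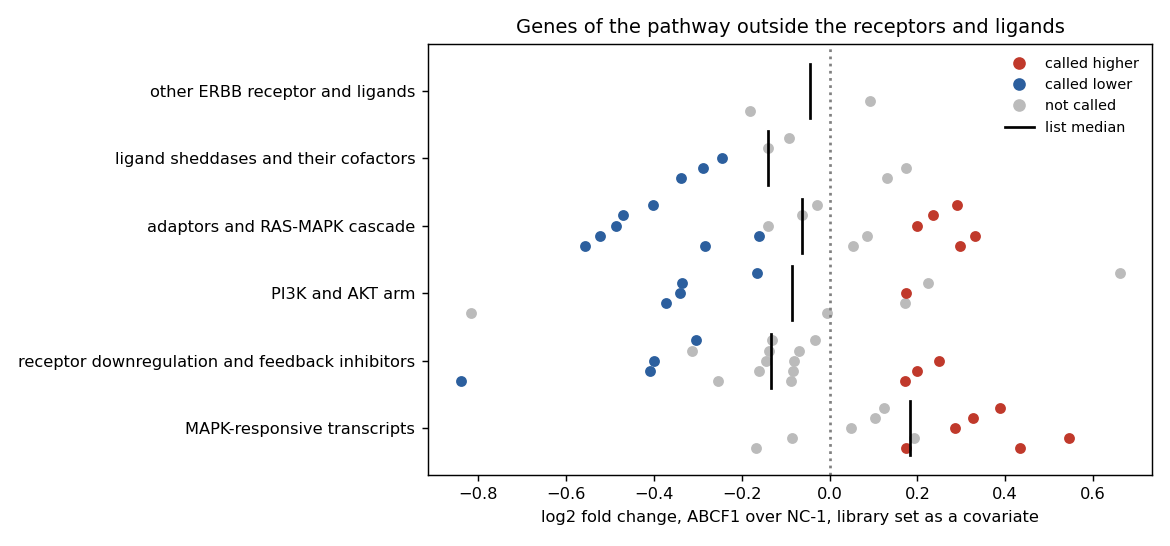
Log2 fold change, libraries labelled ABCF1 over NC-1 with the library set as a covariate, of the tested genes of 6 pathway lists, 1 point a gene, with black bars at list medians and a dotted line at the median of all tested genes. MAPK-responsive transcripts have 6 genes called higher (red) and 0 lower (blue), and sheddases 3 lower and 0 higher.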

How the data were processed

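RNA from 6 libraries was sequenced, and per the submitters' processing notes the tools named are CASAVA 1.8, Trimmomatic, FastQC, HISAT2, StringTie and edgeR. The authors deposited a table of raw read counts per gene and a table of RPKM per gene, which scales reads to transcript length and depth, and how strand was used is not given in the sources used here. Per the deposited tables, coordinates are on GRCh38.

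The test was edgeR's (4.0.16, R 4.3.3; TMM scaling, filterByExpr, quasi-likelihood F test, two-sided), run on counts of all 16545 genes kept of 60612, with Benjamini-Hochberg adjustment over all of them and calls at an adjusted p under 0.05. CPM are counts over the TMM-adjusted library size. SE is the size of the log2 fold change over the square root of F. Further fits added the library set as a covariate, an offset for transcript length and GC (splines with 5 degrees of freedom each, from the longest GENCODE 29 transcript), or both. For the pathway lists, values with the offset are from the fit with both. The fit with the offset alone called 0 of all genes in either direction. DESeq2 1.42.0 and limma 3.58.1 were alternatives. The 10 genes, the pathway lists and the library set were chosen with earlier results of these data known. Named pathway genes are, per list, up to 3 called genes with the smallest p, or the 2 of highest CPM where fewer than 2 are called. As edgeR called none over all libraries, the rule was also applied to the fit with the library set, a choice made after values were seen. One gene that this rule names is not reported here. Likeness was taken over genes of at least 10 CPM. Libraries of the same group differed beyond sampling noise. Promoter windows and their letters come from RefSeq (GRCh38.p14), where 8 of 10 members matched. Poisson intervals and limits for 0 counts cover counting error only.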

Additional observations from a re-analysis of the deposited data

How the results depend on the processing

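The count of genes called by edgeR, 0 over all libraries, was 626 with the DESeq2 Wald test, 4193 with the library set as a covariate, 1803 with both libraries of the set left out and 1093 with the library set and the length and GC offset together. The members called were 1 in each of the last 3 fits, EGFR each time, and 0 in the other alternatives. DESeq2 gave no adjusted p for AREG, TGFA and NRG1. Leaving out each library in turn gave 0 genes and 0 members called. The EGFR log2 fold change was negative in all 20 alternatives (-0.46 to -0.07, adjusted p from 0.0044 to 0.92), and so was that of NRG1 (-0.49 to -0.14). ERBB3, AREG and TGFA stayed positive where they were fitted, none called, but with 1 library left out they ran from 0.05 (without NC-1 replicate 2) to 0.22, from 0.30 to 0.74 (without NC-1 replicate 1) and from 0.26 to 0.55 (without NC-1 replicate 1). ERBB2 ran from 0.01 (without NC-1 replicate 2) to 0.20 (without ABCF1 replicate 3), and turned to -0.001 with library size as the only scaling. HBEGF ran from -0.129 to 0.08 when 1 library was left out and was 0.005 with both libraries of the set left out. The cause of these shifts was not tested. With the replicate number as a block, EGFR was at -0.26 (edgeR adjusted p = 0.74), with 0 genes and 0 members called. Same-numbered libraries deviated from their group means with correlations of 0.112, -0.107 and -0.15, against 0.258 for ABCF1 replicate 3 with NC-1 replicate 2. These values cannot decide whether the numbers mark a shared batch. Deviations within a group are tied to each other, and the pair that stood apart weighs on them. The members with a mean of at least 1 RPKM numbered 5, also by the median and with any 1 library left out, against 6 with TPM in place of RPKM, 6 at a threshold of 0.5 RPKM and 4 at 2 RPKM. Low counts limit AREG, TGFA, EREG, BTC and EPGN most.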
